A study of Mus musculus with 18 samples.

Results

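Senexin B (SnxB), a small-molecule inhibitor of the kinases CDK8 and CDK19, was compared with its solvent DMSO in shCdk8-2 cells, a line in which Cdk8 was already knocked down. The comparison rests on the 3 libraries titled shRNA CDK8.1830 Senexin B and the 3 titled shRNA CDK8.1830 DMSO, which were chosen by label alone and make up 6 of the 18 RNA sequencing (RNA-seq) libraries of the study. The cells are E0771, a murine triple-negative breast cancer (TNBC) line, and they were kept for 48 h with 1 µM SnxB or with DMSO. Per the study's methods, the line first received a CMV-Firefly luciferase construct and then a hairpin against Cdk8, so that luciferase and hairpin are present in both groups. The labels do not say whether the line is 1 clone or a pool, nor whether the replicates came from separate cultures, so that p-values may measure only technical spread between these libraries. The same agents, dose and time were used in cntrl cells (non-targeting shRNA Renilla) and in shCdk8-1 cells (shRNA CDK8.1593), with 3 libraries per group, and these 12 libraries serve here as comparison.

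CDK8 and its paralog CDK19 are the alternative kinases of the Mediator kinase module, in which they pair with cyclin C and sit on the subunits MED12 and MED13. The module docks on Mediator, the complex that links transcription factors to RNA polymerase II, and its kinases phosphorylate transcription factors. An ATP-site inhibitor blocks this catalytic activity and leaves the protein in place, whereas a hairpin lowers the protein itself. The comparison thus asks what the inhibitor does in cells that hold less of 1 of its targets.

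Depth was even, with 18125142 to 22664693 counts assigned to genes in the DMSO libraries and 16578764 to 20169557 in the SnxB libraries. At that depth 3 counts correspond to 0.132 to 0.181 CPM (here counts scaled to the library total), the limit for weakly expressed genes. The marker levels that follow are on this scale, whereas CPM values from the next paragraph on also include the scaling described with the processing. The NK and T cell markers Cd3e, Cd8a, Ncr1, Klrb1c, Prf1 and Gzmb were at 0 counts in all 6 libraries. Of 6 mammary epithelial markers only Krt8 exceeded 1 CPM (11.4 to 13.7 CPM), and Krt18 and Krt19 had at most 1 count in any library. The progesterone receptor gene Pgr had 0 counts, the estrogen receptor gene Esr1 lay between 0.662 and 1.19 CPM, and Erbb2, the gene of the HER2 receptor, between 46.4 and 50.4 CPM. The fibroblast markers summed to 412 to 443 CPM with DMSO and 460 to 490 CPM with SnxB, nearly all of it Pdgfra and Pdgfrb, while Pdpn and Thy1 were at 0 or 1 count. The leukocyte markers summed to 6.47 to 6.62 CPM with DMSO and 4.96 to 5.97 CPM with SnxB, with Ptprc and Adgre1 at 0 or 1 count. The 4 endothelial markers summed to 6.51 to 7.02 CPM with DMSO and 7.48 to 7.80 CPM with SnxB, with Tek at 3 counts or fewer.

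A pair of irregularities was found among the libraries. The headers inside the files number the libraries labelled replicate 1, 2 and 3 of each shCdk8-2 group as 2, 3 and 3, so that the libraries labelled 2 and 3 may stem from the same replicate. The counts of no pair were identical, and every pair differed by more than counting noise. The SnxB libraries labelled 2 and 3 were the most alike of the 18 pairs of replicates in the study, with a chi-square per gene of 1.67 against 6.49 and 6.90 for the other SnxB pairs of the line. The DMSO libraries labelled 2 and 3 were the least alike of their group, at 11.95 against 2.604 and 10.93. Of the 6 libraries, DMSO replicate 3 stood apart in Gm42418, Gm15564, Gm23935, Mir6236 and Lars2, at 4.77 to 7.39 times the level of the next library. Gm42418, a non-coding transcript, lay at 883, 633 and 5765 CPM with DMSO and at 611, 1043 and 1204 CPM with SnxB. These 5 were picked among genes with a large estimated change that missed the adjusted p, so that their lack of a call follows from the choice. Counts of deregulated genes are given below also without that library and with the libraries labelled 2 and 3 summed.

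The hairpin's target was examined first. In DMSO, Cdk8 lay at 38.9 ± 0.376 CPM (SD, n = 3) in shCdk8-2 cells, between cntrl cells at 56.1 ± 2.13 CPM and shCdk8-1 cells at 21.4 ± 2.44 CPM. With SnxB the shCdk8-2 libraries read 36.6, 41.6 and 40.3 CPM against 38.5, 38.9 and 39.2 CPM with DMSO, so that the groups overlapped. The log2 fold change of Cdk8 was 0.02 with a 95% interval of −0.13 to 0.17 (adjusted p = 0.957). Its paralog Cdk19 read 104, 101 and 102 CPM with DMSO and 120, 114 and 111 CPM with SnxB, without overlap. The log2 fold change of Cdk19 was 0.17 (SE 0.0425, adjusted p = 0.0407), and the call was lost on leaving out any 1 of the 3 DMSO libraries or SnxB replicate 1 or 2 (adjusted p of 0.0783 to 0.18). Of the other subunits of the kinase module, cyclin C (Ccnc) had a log2 fold change of 0.11, Med12 of 0.07, Med13 of −0.05 and Med13l of −0.06, and none passed the test.

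SnxB deregulated 262 of 12772 genes tested in shCdk8-2 cells, which is 2.05% (edgeR's quasi-likelihood test, Benjamini-Hochberg adjusted p below 0.05), while 12.3% had an unadjusted p below 0.05. Of these, 126 (0.987%) were higher and 136 (1.06%) lower with SnxB, and 261 were protein-coding. The changes were small. Among the genes that rose, 49 changed by less than 1.2-fold, 47 by 1.2 to 1.5-fold, 17 by 1.5 to 2-fold and 13 (0.102% of all genes) by more. Among the genes that fell these numbers were 62, 59, 12 and 3 (0.0235%). Hence 16 genes (0.125%) passed the adjusted p together with a 2-fold change, and 15 of these lay below a mean of 10 CPM. Leaving out DMSO replicate 3 lowered the numbers to 148 genes and, past the 2-fold change, 9 (10 without SnxB replicate 2). For the adjusted p alone, leaving out any other library gave 141 to 163 genes, and summing the libraries labelled 2 and 3 gave 112 genes, all of them among the 262. In all 262 genes the groups did not overlap, which was also the case for 10.7% of all tested genes in the direction of a rise and 10.6% in that of a fall.

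**Figure D1:**
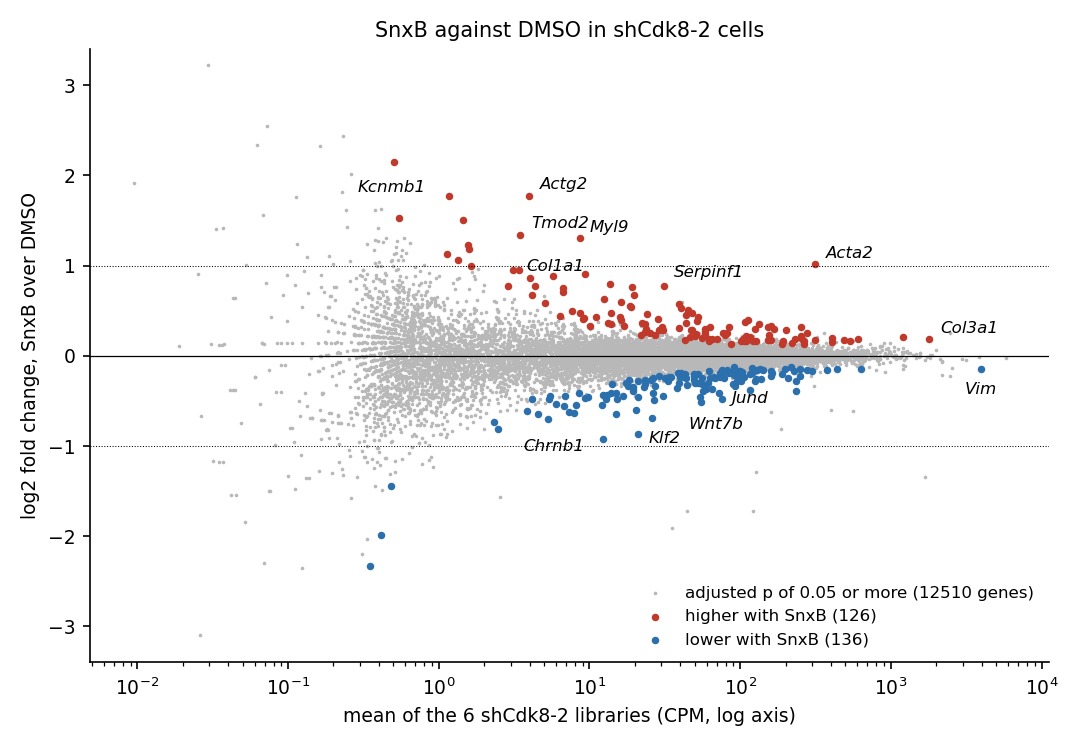
Log2 fold change of SnxB over DMSO in shCdk8-2 cells (vertical axis) against the mean level of the 6 libraries in CPM (horizontal log axis) for each of the 12772 genes tested, with the 126 genes higher with SnxB in red, the 136 lower in blue and dotted lines at a 2-fold change. Acta2 is the sole gene past both limits that lies above 10 CPM, and the 3 genes in blue past the 2-fold line lie below 1 CPM.

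Several of the largest rises were of genes of smooth muscle contraction. Acta2 (chr19:34241090-34255336, minus strand, GRCm38), the smooth muscle alpha actin, read 207, 216 and 202 CPM with DMSO and 425, 424 and 415 CPM with SnxB. The 3 SnxB libraries lay within 10 CPM of each other and far above every DMSO library. The log2 fold change of 1.01 (SE 0.045, 95% interval 0.92 to 1.11) had an adjusted p of 3.27e-11 and held under every alternative. Actg2 (chr6:83512905-83536265, minus strand), the enteric smooth muscle gamma actin, rose from 1.87, 2.3 and 1.21 CPM to 6.46, 6.09 and 6.03 CPM. Its log2 fold change was 1.78 (SE 0.191, adjusted p = 1.94e-05). Myl9 (chr2:156775420-156781658, plus strand), the regulatory myosin light chain of smooth muscle, rose from 5.01, 5.21 and 4.66 CPM to 12.4, 11.7 and 12.6 CPM. All SnxB libraries were more than 2-fold above the DMSO libraries, and the log2 fold change was 1.30 (SE 0.112, adjusted p = 2.21e-06).

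Kcnmb1, the accessory subunit of the large-conductance calcium-activated potassium channel of smooth muscle, rose from 0.566, 0.511 and 0.493 CPM to 1.58, 2.11 and 1.77 CPM, with a log2 fold change of 1.77 (SE 0.254, adjusted p = 0.000358). Lmod1, a leiomodin that nucleates actin filaments in smooth muscle, read 0.131, 0.306 and 0.11 CPM with DMSO and 0.641, 0.968 and 0.886 CPM with SnxB, so that the DMSO libraries lay around the limit of 3 counts. Its log2 fold change of 2.15 (adjusted p = 0.00707) was no longer called without DMSO replicate 1 (adjusted p = 0.054). Tmod2, a tropomodulin that caps the slow-growing end of actin filaments, read 2.31, 2.14 and 1.37 CPM with DMSO. With SnxB it read 4.63, 5.12 and 5.32 CPM, without overlap, and its log2 fold change was 1.35 (SE 0.161, adjusted p = 6.32e-05).

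Many of these genes are classical targets of serum response factor (SRF). SRF binds a short AT-rich element, the CArG box, and together with the myocardin-related cofactors drives genes of the actin cytoskeleton, whereas with ternary complex factors it drives immediate early genes. On a list of smooth muscle and SRF target genes, 11 of 28 tested members rose and 0 fell (39.3% called against 2.05% of all genes). The list was chosen with earlier results of these data known, so that this share is a description and no independent test. The median log2 fold change of the list was 0.15, against −0.00 over all genes tested, and 22 of the 28 values were positive. Besides Acta2, Actg2, Myl9 and Lmod1, the risers were the calponin Cnn2, the LIM protein Csrp1, the tropomyosins Tpm1 and Tpm2, the focal adhesion protein Vcl (vinculin), Pdlim7 and Srf itself. The number of risers on the list lay between 8 and 12 under the alternatives.

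Apart from Acta2, the abundant risers of the list changed by less than 1.5-fold, with little scatter between libraries. Cnn2 read 144, 144 and 141 CPM with DMSO and 181, 178 and 178 CPM with SnxB, a log2 fold change of 0.33 (SE 0.0314, adjusted p = 5.3e-06). Csrp1 read 118, 111 and 121 CPM with DMSO and 147, 153 and 148 CPM with SnxB, a log2 fold change of 0.36 (adjusted p = 0.000149). For both genes the 3 SnxB libraries lay above all DMSO libraries. The log2 fold changes were 0.25 for Tpm2, 0.19 for Tpm1, 0.25 for Vcl, 0.22 for Pdlim7 and 0.18 for Srf. The calls of Vcl, Pdlim7 and Srf were lost in several leave-one-out fits, with adjusted p of 0.0584 to 0.0735 for Vcl (without DMSO replicate 2 or 3 or SnxB replicate 1), 0.0582 to 0.113 for Pdlim7 (without DMSO replicate 1 or 3 or SnxB replicate 3) and 0.0542 to 0.19 for Srf (without DMSO replicate 1 or 3 or any 1 SnxB library). With the libraries labelled 2 and 3 summed, the calls of Tpm1 (adjusted p = 0.0585), Vcl (adjusted p = 0.131) and Srf were lost. That of Srf was also lost with the replicate block, and that of Pdlim7 on the compared groups alone (adjusted p = 0.0549).

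Not all of the list moved. The ubiquitous actin gene Actb had a log2 fold change of −0.04, and the myosin light chain kinase gene Mylk of 0.20 (adjusted p = 0.574). Filamin A (Flna), an actin crosslinker, had a log2 fold change of 0.26 with an adjusted p of 0.26, and its 3 SnxB libraries scattered widely. Other smooth muscle genes were nearly absent, with at most 12 counts of Tagln, 1 count of Cnn1, 1 count of Myh11 and 3 counts of Myocd in any of the 6 libraries. The sums of the fibroblast and of the endothelial markers were higher, and that of the leukocyte markers lower, in every SnxB library than in every DMSO library, as given above, and their part in the rise of the contractile genes was not tested. Of the markers on these lists that were tested singly, 0 passed the adjusted p. Over all tested genes, 10.7% lay higher and 10.6% lower with SnxB without overlap. In RNA from whole cultures, more cells of a type and more RNA per cell cannot be told apart. Actin genes share long identical stretches, so that short reads can be lost or exchanged between them, and Actg1, a cytoplasmic actin of most cells, was listed at only 1.53 to 3.55 CPM. The levels of Acta2 and Actg2 carry that uncertainty.

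**Figure D2:**
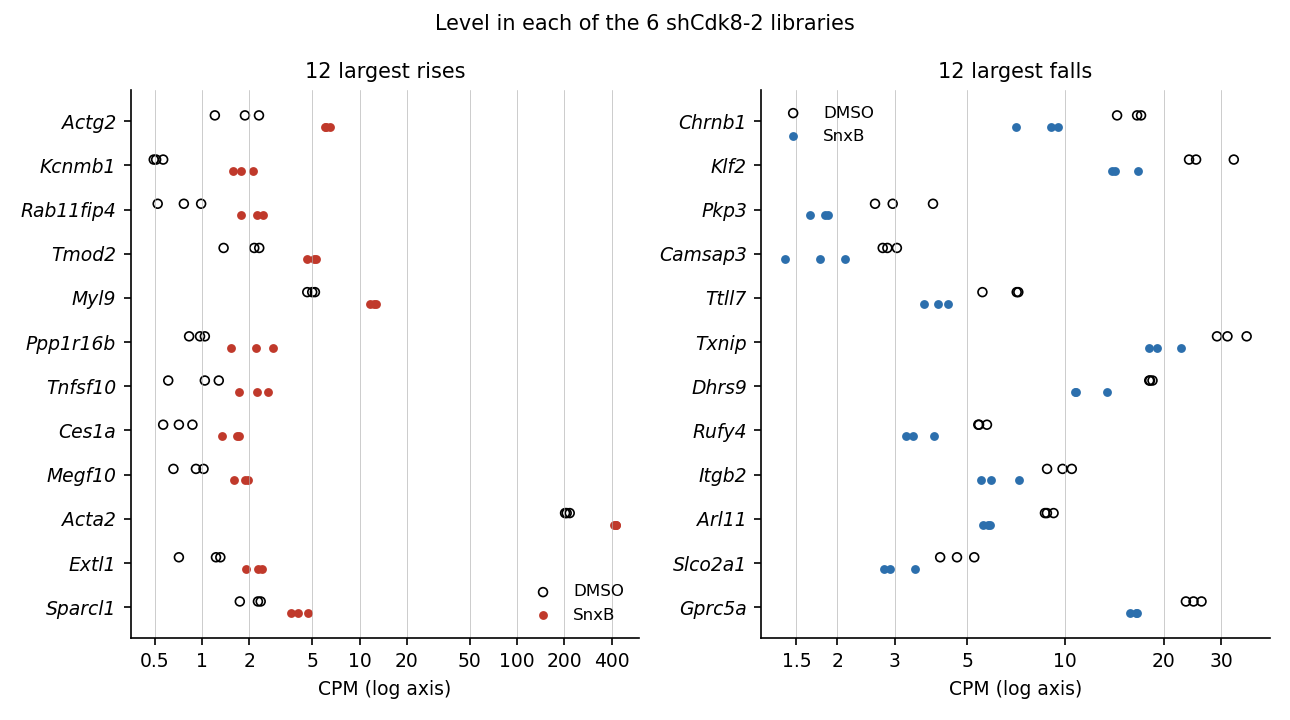
Level of the 12 genes with the largest rise (left) and the 12 with the largest fall (right) in each shCdk8-2 library, in CPM on log axes, with open circles for the 3 DMSO libraries and filled circles for the 3 SnxB libraries. Only genes past the adjusted p whose groups did not overlap and whose mean was 1 CPM or higher were eligible, so that the separation is a property of the choice. Acta2 lies above 200 CPM, whereas the other 11 genes on the left lie below 13 CPM.

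Further genes of actin dynamics, which were not on the list and were named after their values were seen, rose alongside. Cotl1, a coactosin that binds actin filaments, read 38.2, 36.8 and 37.0 CPM with DMSO and 51.5, 54.3 and 53.7 CPM with SnxB, a log2 fold change of 0.51 (SE 0.0456, adjusted p = 2.41e-06). Dstn, which severs actin filaments, had a log2 fold change of 0.32 (adjusted p = 0.000378), and Wdr1, its helper in filament turnover, of 0.17 (adjusted p = 0.00198). Lima1, which stabilizes filament bundles, rose by 0.30 on the log2 scale, and the PDZ and LIM domain proteins Pdlim5 and Pdlim4 by 0.32 and 0.55. Lcp1, an actin-bundling plastin, rose from 2.83, 2.86 and 2.9 CPM to 5.52, 4.78 and 5.32 CPM, a log2 fold change of 0.86 (adjusted p = 0.00488). The unconventional myosin Myo18b rose from 4.57, 4.03 and 3.4 CPM to 7.59, 7.69 and 7.09 CPM, a log2 fold change of 0.89 (adjusted p = 0.000112). In each of these genes the SnxB libraries lay above all DMSO libraries, and all of these calls held under every alternative. Tmsb4x, the gene of the actin monomer binding thymosin beta 4, rose by 0.28, but its call was lost without DMSO replicate 2 or 3 or any 1 SnxB library (adjusted p of 0.0502 to 0.127).

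Promoters of the deregulated genes were searched for the CArG box on both strands, in windows from 250 bases before to 50 after each annotated start (RefSeq, GRCm38.p6). A window was found for 90 of the 126 genes that rose, and 9 of them (10.0%) held a box. Of 106 genes that fell and had a window, 0 held a box, and over all tested genes the share was 1.5% (141 of 9418), while it was 1.81% over all 27025 genes with a window. Among the risers of the smooth muscle and SRF list 4 of 10 genes held a box, and among the risers outside the list 5 of 80 (6.25%). The stretches around the boxes are shown for 8 of these genes because the box recurred in risers of different function, with the box in capitals, and each reads 5′ to 3′ on the strand of the gene. The GC box was also counted in these windows, but it was not compared between the sets of genes. A match describes the letters in this window and does not say that SRF is bound there.
Myl9, chr2:156775283-156775332, plus strand, box 161 bases before the start: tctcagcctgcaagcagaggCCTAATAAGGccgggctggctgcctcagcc
Cnn2, chr10:79988524-79988573, plus strand, box 56 bases before the start: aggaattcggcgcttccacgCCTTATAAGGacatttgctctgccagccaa
Vcl, chr14:20929151-20929200, plus strand, box 227 bases before the start: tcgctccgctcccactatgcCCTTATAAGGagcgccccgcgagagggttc
Srf, chr17:46556195-46556264, minus strand, boxes 82 and 62 bases before the start: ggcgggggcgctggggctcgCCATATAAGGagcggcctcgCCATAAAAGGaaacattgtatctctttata
Ldb3, chr14:34588687-34588736, minus strand, box 35 bases before the start: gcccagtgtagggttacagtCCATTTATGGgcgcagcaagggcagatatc
Cbr2, chr11:120732100-120732149, minus strand, box 108 bases before the start: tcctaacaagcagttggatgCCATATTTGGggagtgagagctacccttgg
Lima1, chr15:99820167-99820216, minus strand, box 47 bases before the start: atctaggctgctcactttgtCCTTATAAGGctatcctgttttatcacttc
Filip1l, chr16:57549160-57549209, plus strand, box 62 bases before the start: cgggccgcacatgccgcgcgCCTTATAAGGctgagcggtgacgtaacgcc

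Cnn2, Vcl, Lima1 and Filip1l carried the identical box and lay at mean levels of 25.1 to 278 CPM. Ldb3, which anchors proteins at the Z line of striated muscle, read 1.96, 2.55 and 2.41 CPM with DMSO and 3.84, 4.78 and 4.79 CPM with SnxB, a log2 fold change of 0.96 (adjusted p = 0.00622, and 0.0511 without DMSO replicate 1). Cbr2, a carbonyl reductase, read 40.7, 39.7 and 39.6 CPM with DMSO and 56.8, 51.7 and 58.0 CPM with SnxB, a log2 fold change of 0.47 (adjusted p = 2.33e-05). Both genes were higher in every SnxB library. Filip1l, an inhibitor of cell migration, rose by 0.26 (adjusted p = 0.0142), with the call lost without DMSO replicate 2 or 3 or SnxB replicate 1 or 2 (adjusted p of 0.0534 to 0.0647). The ninth gene with a box, Rsu1, a focal adhesion protein with a log2 fold change of 0.23 (adjusted p = 0.000466), held it after the start.

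The remaining large rises were of weakly expressed genes. Rab11fip4, a partner of the recycling GTPase RAB11, read 0.522, 0.766 and 0.986 CPM with DMSO and 1.77, 2.22 and 2.42 CPM with SnxB (log2 fold change 1.51, adjusted p = 0.00724, and 0.0604 without DMSO replicate 1). Ppp1r16b, a regulatory subunit of protein phosphatase 1, read 0.827, 0.97 and 1.04 CPM with DMSO and 2.81, 1.54 and 2.19 CPM with SnxB (log2 fold change 1.22, adjusted p = 0.00565, and 0.0635 without SnxB replicate 1). Tnfsf10, the death ligand TRAIL, read 0.609, 1.28 and 1.04 CPM with DMSO and 2.22, 2.62 and 1.71 CPM with SnxB (log2 fold change 1.19, adjusted p = 0.0223). The groups did not overlap, but leaving out DMSO replicate 1 or 3 or SnxB replicate 1 or 2 ended the call of Tnfsf10 (adjusted p of 0.0584 to 0.147). Ces1a, a carboxylesterase with close paralogs, had a log2 fold change of 1.13 (adjusted p = 0.00724, and 0.0602 without DMSO replicate 1), and the engulfment receptor Megf10 and the exostosin-like Extl1 of 1.06 and 1.00. The calls of Megf10 (without DMSO replicate 3 or SnxB replicate 1 or 2) and Extl1 (without DMSO replicate 3 or SnxB replicate 1) were lost with adjusted p of 0.0508 to 0.0692 and 0.054 to 0.0641. Sparcl1, a secreted matrix-associated protein, rose from 2.26, 1.74 and 2.36 CPM to 3.65, 4.04 and 4.73 CPM, and its log2 fold change of 0.96 (SE 0.183, adjusted p = 0.0062) held under every alternative. At higher levels, the secreted serpin Serpinf1 rose from 23.5, 21.4 and 23.7 CPM to 37.0, 38.3 and 42.7 CPM (log2 fold change 0.78, adjusted p = 5.3e-06). The kinase gene Sgk1 rose from 98.2, 98.8 and 95.7 CPM to 127, 130.1 and 128 CPM (log2 fold change 0.40, adjusted p = 2.21e-06). Serpinf1 and Sgk1 were named after their values were seen.

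Among the called genes with a mean of 1 CPM or more, no fall reached 2-fold, and the 3 larger falls of weaker genes are given below. Chrnb1, the beta subunit of the muscle acetylcholine receptor, fell from 17.1, 16.6 and 14.4 CPM to 7.05, 9.51 and 9.04 CPM. Its log2 fold change of −0.92 (SE 0.112, adjusted p = 7.21e-05) was the most negative among the called genes with a mean of 1 CPM or more. Klf2, a Krüppel-like transcription factor and immediate early gene, fell from 25.2, 32.8 and 23.9 CPM to 13.9, 16.7 and 14.2 CPM, a log2 fold change of −0.87 (SE 0.116, adjusted p = 0.000189). Every SnxB library lay below every DMSO library for both genes. Dhrs9, a retinol dehydrogenase, fell from 18.5, 18.2 and 18.1 CPM to 10.7, 13.4 and 10.8 CPM (log2 fold change −0.65, adjusted p = 0.000257). Gprc5a, an orphan receptor induced by retinoic acid, fell from 23.4, 26.1 and 24.7 CPM to 15.8, 16.6 and 16.5 CPM (log2 fold change −0.60, adjusted p = 4.04e-05). Arl11, a small GTPase, fell from 8.66, 8.78 and 9.21 CPM to 5.86, 5.58 and 5.79 CPM (log2 fold change −0.63, adjusted p = 0.00188). These 5 calls held under every alternative.

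Txnip, which binds thioredoxin and restrains glucose uptake, read 29.2, 35.9 and 31.4 CPM with DMSO and 19.1, 22.6 and 18.1 CPM with SnxB. The groups did not overlap, but the call (log2 fold change −0.69, adjusted p = 0.0104) was lost without DMSO replicate 2 or SnxB replicate 1 or 3 (adjusted p of 0.0598 to 0.0794). The integrin beta subunit Itgb2 (log2 fold change −0.63), the tubulin polyglutamylase Ttll7 (−0.70), the prostaglandin transporter Slco2a1 (−0.61), Rufy4 (−0.65) and the desmosomal plakophilin Pkp3 (−0.82) passed the adjusted p with all libraries and missed it in 3 or 4 of the leave-one-out fits each. Those fits gave 0.0626 to 0.0845 for Itgb2 (DMSO replicate 2, SnxB 2, 3), 0.0558 to 0.0929 for Ttll7 (DMSO 2, 3, SnxB 1, 3), 0.0584 to 0.113 for Slco2a1 (DMSO 2, 3, SnxB 1, 3), 0.0503 to 0.0871 for Rufy4 (DMSO 1, 3, SnxB 1, 2) and 0.0641 to 0.138 for Pkp3 (DMSO 2, SnxB 1, 2, 3). Camsap3, a microtubule minus-end protein, had a log2 fold change of −0.73 at an adjusted p of 0.0479 and missed the threshold without any 1 of the 6 libraries (adjusted p of 0.0537 to 0.266). With all libraries, its call was also lost with DESeq2, DESeq2 size factors, library totals, the replicate block, the compared groups alone and summed libraries (adjusted p of 0.0512 to 0.131). The 3 genes that fell by more than 2-fold were 4930518I15Rik, Gm15013 and Crhbp, at mean levels of 0.349, 0.415 and 0.478 CPM, and they were named after their values were seen. All 3 calls were lost without DMSO replicate 3 or SnxB replicate 1 or 2, with adjusted p of 0.0681 to 0.195.

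The remaining gene lists are described by their counts. MHC class I antigen presentation (19 tested), interferon-stimulated genes (42), NF-kB subunits and feedback genes (17), sterol synthesis and lipogenesis (29), cell cycle and E2F genes (35) and the integrated stress and unfolded protein response (20) each had 0 members past the adjusted p by edgeR. Their median log2 fold changes were 0.04, −0.08, −0.04, 0.01, 0.01 and 0.01, in that order. Their members with an unadjusted p below 0.05 numbered 2, 6, 5, 8, 6 and 3, and DESeq2 called 1 gene of the sterol list and 0 of the others. Collagens, matrix proteins and crosslinking had 5 risers and 1 faller among 30 (20%, median 0.12), and the ligands of NK and T cell receptors 2 risers and 3 fallers among 17 (29.4%, median 0.01). CDK inhibitors and p53 targets had 3 risers among 20 (15%), and glycolysis and hypoxia genes 3 risers among 28 (10.7%). Over all genes tested, 2.05% were called.

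**Figure D3:**
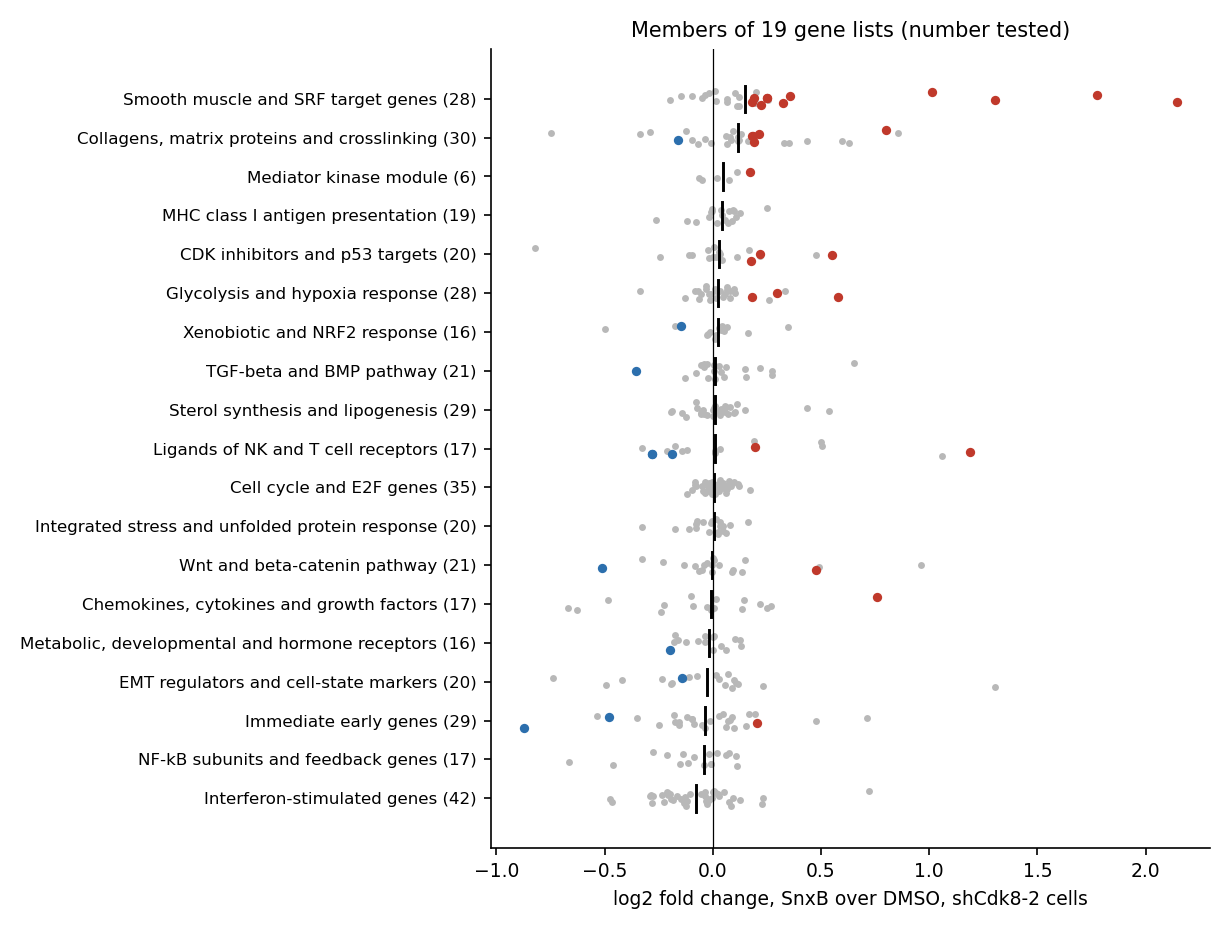
Log2 fold change of SnxB over DMSO in shCdk8-2 cells for every tested member of 19 gene lists, with the number tested in brackets, red and blue points for members past the adjusted p that were higher or lower, grey points for the others and a black bar at the median of each list. The smooth muscle and SRF list holds 11 red points and the highest median, 0.15.

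Among the matrix genes, Col1a1, the alpha 1 chain of collagen I, rose from 10.7, 9.8 and 9.26 CPM to 17.3, 17.9 and 16.6 CPM. The SnxB libraries were clearly separated from the DMSO libraries, and the log2 fold change of 0.80 (SE 0.117, adjusted p = 0.00043) held under every alternative. The other risers changed little, with log2 fold changes of 0.21 for Col6a1, 0.19 for Col3a1, 0.19 for the crosslinking enzyme Loxl2 and 0.18 for the collagen prolyl hydroxylase P4ha2, and the faller was Col18a1 (−0.16), the source of endostatin. Under the alternatives the number of risers on this list ranged from 1 to 8. The calls of Col6a1 (without DMSO replicate 1 or 3 or SnxB replicate 1, adjusted p of 0.0755 to 0.0929), Col3a1 (DMSO 1, 3, SnxB 1, 2, 0.0537 to 0.107), Loxl2 (DMSO 2, 3, SnxB 1, 2, 3, 0.0633 to 0.114) and Col18a1 (any 1 library, 0.0854 to 0.239) were lost in leave-one-out fits. With the libraries labelled 2 and 3 summed, these calls and that of P4ha2 (adjusted p = 0.0876) were lost. That of Loxl2 was also lost without a filter, and that of Col18a1 with DESeq2 size factors and with the replicate block.

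Signalling and stress genes changed in small numbers. Ccl7, a monocyte-attracting chemokine, read 13.1, 14.7 and 15.2 CPM with DMSO and 24.8, 24.5 and 23.2 CPM with SnxB, a log2 fold change of 0.76 (SE 0.0933, adjusted p = 7.69e-05), and was the sole chemokine, cytokine or growth factor of 17 past the test. Adm, the hypoxia-induced vasodilator adrenomedullin, rose from 30.1, 34.2 and 30.2 CPM to 49.1, 44.8 and 47.0 CPM (log2 fold change 0.58, adjusted p = 2.51e-05). In both genes the SnxB libraries lay above every DMSO library. Ndrg1 (log2 fold change 0.30) and Pfkp, a phosphofructokinase (0.18), were the other risers among glycolysis and hypoxia genes. Gadd45a, a growth arrest and DNA damage gene, rose from 15.4, 15.8 and 14.1 CPM to 22.6, 22.3 and 21.3 CPM (log2 fold change 0.55, adjusted p = 0.000256). Plk2 rose by 0.22 on the log2 scale, and Cdkn1b, the CDK inhibitor p27, by 0.18, the latter with the call lost without DMSO replicate 2 (adjusted p = 0.0666). The 35 cell cycle and E2F genes lay between −0.12 and 0.17.

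Calls from the WNT and immediate early lists went in both directions. Wnt7b, a WNT ligand, read 64.0, 65.3 and 65.1 CPM with DMSO and 47.3, 45.0 and 43.7 CPM with SnxB, a log2 fold change of −0.51 (SE 0.0705, adjusted p = 0.000255). Jund, an AP-1 subunit, fell from 84.0, 98.6 and 80.7 CPM to 68.9, 60.5 and 58.9 CPM (log2 fold change −0.48, adjusted p = 0.000358). Neither gene overlapped between the groups, and both calls held under every alternative. Tns2, a tensin of focal adhesions, and the receptor kinase Epha2, both named after their values were seen, fell by 0.41 and 0.27 on the log2 scale. In the other direction, Axin2, a feedback target of WNT signalling, rose by 0.48 (adjusted p = 0.0162), and the phosphatase Dusp4 by 0.20 (adjusted p = 0.0184). The calls of Axin2 (without DMSO replicate 1 or 3 or SnxB replicate 1 or 3, 0.0507 to 0.111) and Dusp4 (without DMSO replicate 2 or 3 or SnxB replicate 1, 0.0616 to 0.105) were lost in leave-one-out fits. Vimentin (Vim) fell by 0.14, Srxn1 by 0.15 and the nuclear receptor Ppard by 0.20, all with adjusted p above 0.04 and lost without 4 or more of the libraries in turn, with the highest adjusted p at 0.257, 0.194 and 0.262. The calls of Vim, Srxn1 and Ppard were also lost with DESeq2 size factors, the replicate block and summed libraries, and that of Ppard with DESeq2.

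The study asked how tumor cells evade NK cells, and genes of that question were examined by name. Pvr, a ligand of the NK cell receptors DNAM-1 and TIGIT, fell from 108, 109.9 and 116 CPM to 89.4, 92.1 and 92.5 CPM, a log2 fold change of −0.28 (SE 0.0474, adjusted p = 0.00171) that held under every alternative. Every SnxB library lay below every DMSO library. The immune checkpoint Cd276 (log2 fold change −0.28) and the galectin Lgals9 (−0.19) also fell, and the phagocytosis inhibitor Cd47 rose by 0.20. These 3 calls were lost in leave-one-out fits, with adjusted p of 0.0627 to 0.169 for Cd276 (DMSO 2, 3, SnxB 2, 3), 0.0521 to 0.165 for Lgals9 (any 1 library) and 0.0611 to 0.118 for Cd47 (DMSO 2, 3, SnxB 2). Tnfsf10 was the other riser among the ligands.

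None of the 8 genes that the study followed in knockdown cells passed the adjusted p for SnxB by edgeR's quasi-likelihood test, nor by DESeq2, and 1 of them, Raet1d, had an unadjusted p below 0.05. H2-D1, a classical MHC class I gene, read 301, 296 and 301 CPM with DMSO and 289.8, 306 and 300.1 CPM with SnxB, so that the groups overlapped, and the 95% interval of its log2 fold change was −0.07 to 0.06. For H2-K1 the interval was −0.20 to 0.04. The chemokine Ccl2 read 22.7, 25.4 and 20.9 CPM with DMSO and 24.3, 26.4 and 25.3 CPM with SnxB, with an interval of −0.03 to 0.31. The intervals of the PD-L1 gene Cd274 (−0.30 to 0.36), the adhesion molecule Icam1 (−0.24 to 0.26) and the protease Mmp9 (−0.32 to 0.38) were wider. Raet1d, which encodes a ligand of the NK cell receptor NKG2D and has near-identical family members, had a log2 fold change of −0.17 (−0.32 to −0.03, adjusted p = 0.28). The transcription factor Snai2 lay at 0.0591 to 0.512 CPM, close to the limit of 3 counts. Its interval of −0.92 to 1.39 includes a 2-fold rise and nearly reaches a 2-fold fall, so that its change is poorly determined at this depth.

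The response was then set beside that of the other 2 lines, which share no library with it. SnxB deregulated 708 genes (5.54%) in cntrl cells, with 3.41% of all genes higher and 2.14% lower, and 189 (1.48%) in shCdk8-1 cells, with 0.916% higher and 0.564% lower. Of the 126 genes that rose in shCdk8-2 cells, 91 (72.2%, and 20.9% of the 435 risers of cntrl cells) were also called higher in cntrl cells and 70 (55.6%, and 59.8% of the 117 risers there) in shCdk8-1 cells. Of the 136 genes that fell, 77 (56.6%, and 28.2% of 273) were called lower in cntrl cells and 44 (32.4%, and 61.1% of 72) in shCdk8-1 cells. None of the 262 genes was called in the opposite direction in either line. Irrespective of a call, 120 risers and 135 fallers had the same sign in cntrl cells and 126 and 134 in shCdk8-1 cells, whereas 63.9% and 64.2% of all genes tested did. In all 3 lines 56 genes rose and 30 fell, and 21 risers and 45 fallers were called in shCdk8-2 cells alone, which does not show that they differ between the lines.

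**Figure D4:**
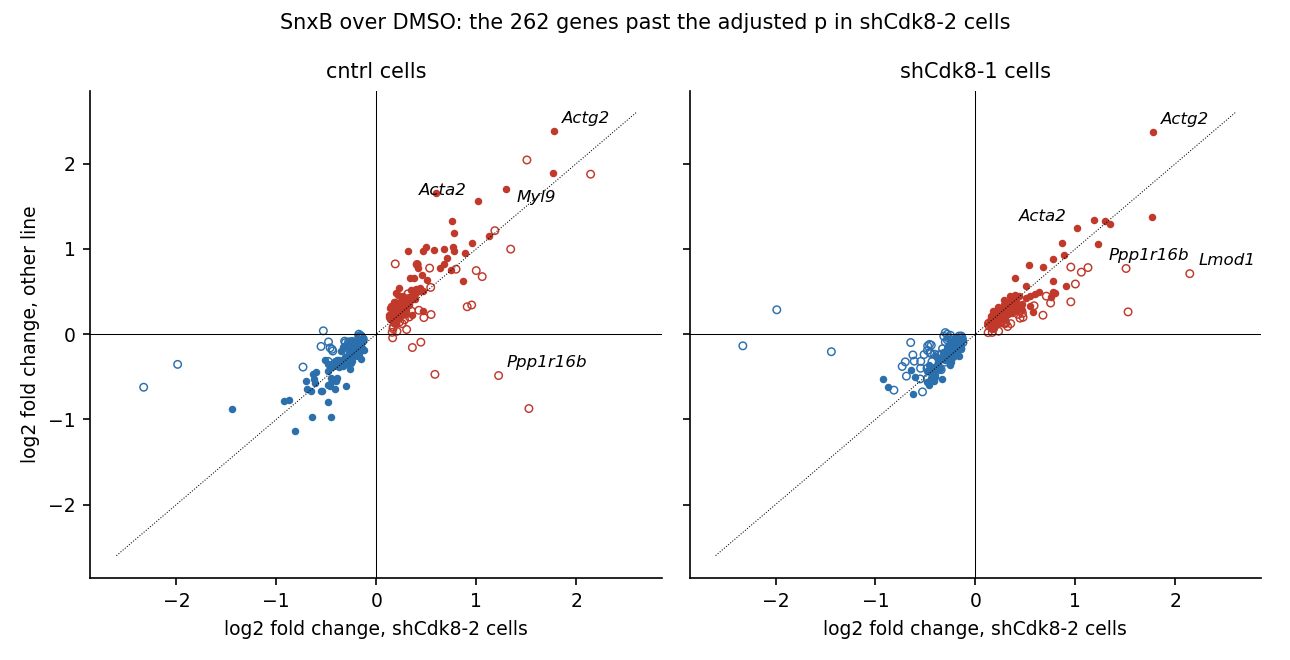
Log2 fold change of SnxB over DMSO in cntrl cells (left) and shCdk8-1 cells (right) against that in shCdk8-2 cells for the 262 genes past the adjusted p in shCdk8-2 cells, red where higher and blue where lower, filled where the other line also passed the adjusted p, with a dotted line of equal change. Of the 126 red points 120 lie above zero on the left and 126 on the right.

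Acta2, Myl9, Actg2, Cnn2 and Csrp1 passed the test in every line, from different levels. Lmod1 did not pass in cntrl or shCdk8-1 cells (adjusted p of 0.406 and 0.607), Tmod2 did not in cntrl cells (0.559) and Vcl did not in shCdk8-1 cells (0.236). Acta2 went from a mean of 142 CPM with DMSO to 419 CPM with SnxB in cntrl cells, from 94.6 to 225 CPM in shCdk8-1 cells and from 209 to 421 CPM in shCdk8-2 cells. The treated cntrl and shCdk8-2 cells thus lay at almost the same level, and the untreated ones did not. Myl9 went from 1.67 to 5.37 CPM in cntrl cells and from 3.29 to 8.29 CPM in shCdk8-1 cells, against 4.96 to 12.2 CPM in shCdk8-2 cells. Its log2 fold changes in cntrl and shCdk8-1 cells were 1.70 and 1.33, and those of Actg2 were 2.39 and 2.37. Of the smooth muscle and SRF list, 16 members rose in cntrl cells and 10 in shCdk8-1 cells, and 0 fell in either. The falls of Chrnb1 and Klf2 were also found in cntrl cells (log2 fold changes of −0.78 and −0.78) and shCdk8-1 cells (−0.52 and −0.62). By size, 41 of the 126 risers and 99 of the 136 fallers had a larger absolute log2 fold change in shCdk8-2 than in cntrl cells, against 5596 of all 12772 genes tested. The risers and fallers were chosen by their call in shCdk8-2 cells, which favours larger changes there, so that nothing is read from these shares.

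The difference between the responses was tested directly by an interaction term. Between shCdk8-2 and cntrl cells, 7 of 12772 genes (0.0548%) passed the adjusted p, 1 (0.00783%) with a higher and 6 (0.047%) with a lower response in shCdk8-2 cells, while 5.86% had an unadjusted p below 0.05. For Acta2 the response was lower by 0.55 on the log2 scale (difference −0.55, SE 0.0637, 95% interval −0.68 to −0.41, adjusted p = 0.000675), and this call held in all 20 alternatives. Cbr2 (difference −0.51, adjusted p = 0.0177) rose from 19.8 to 39.0 CPM in cntrl and from 40.0 to 55.5 CPM in shCdk8-2 cells. Atp6v0a4, a subunit of the vacuolar proton pump (difference −1.46, adjusted p = 0.0232), rose from 0.761 to 2.76 CPM in cntrl cells and lay at 3.67 and 4.83 CPM in shCdk8-2 cells. Ereg, the EGF receptor ligand epiregulin (difference −0.43, adjusted p = 0.0304), went from 107 to 143 CPM in cntrl cells and lay at 47.0 and 46.7 CPM in shCdk8-2 cells. Gas7, a growth arrest gene (difference −0.37, adjusted p = 0.0371), and Pgbd5, a transposase-derived gene (difference −0.31, adjusted p = 0.0407), had log2 fold changes of 0.45 and 0.54 in cntrl cells and of 0.09 and 0.23 in shCdk8-2 cells.

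The sole gene with the higher response in shCdk8-2 cells was Ppp1r16b (difference 1.71, adjusted p = 0.0304). Its libraries read 4.19, 3.52 and 2.74 CPM with DMSO and 2.41, 2.41 and 2.56 CPM with SnxB in cntrl cells, so that its levels were lower with SnxB there, with a log2 fold change of −0.49 that did not pass the test (adjusted p = 0.128). In shCdk8-1 cells its log2 fold change was 1.06 (adjusted p = 0.00276). Apart from Acta2, each of these calls was lost without several of the cntrl or shCdk8-2 libraries in turn, with adjusted p of up to 0.253 for Pgbd5. Between shCdk8-2 and shCdk8-1 cells 0 genes passed the adjusted p by edgeR, 431 (3.37%) had an unadjusted p below 0.05, and DESeq2 gave 0 as well. For Acta2 the difference between the 2 knockdown lines was −0.24 on the log2 scale, with a 95% interval of −0.37 to −0.10 for this gene alone but an adjusted p of 1, and for Myl9 it was −0.03 (−0.38 to 0.33).

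**Figure D5:**
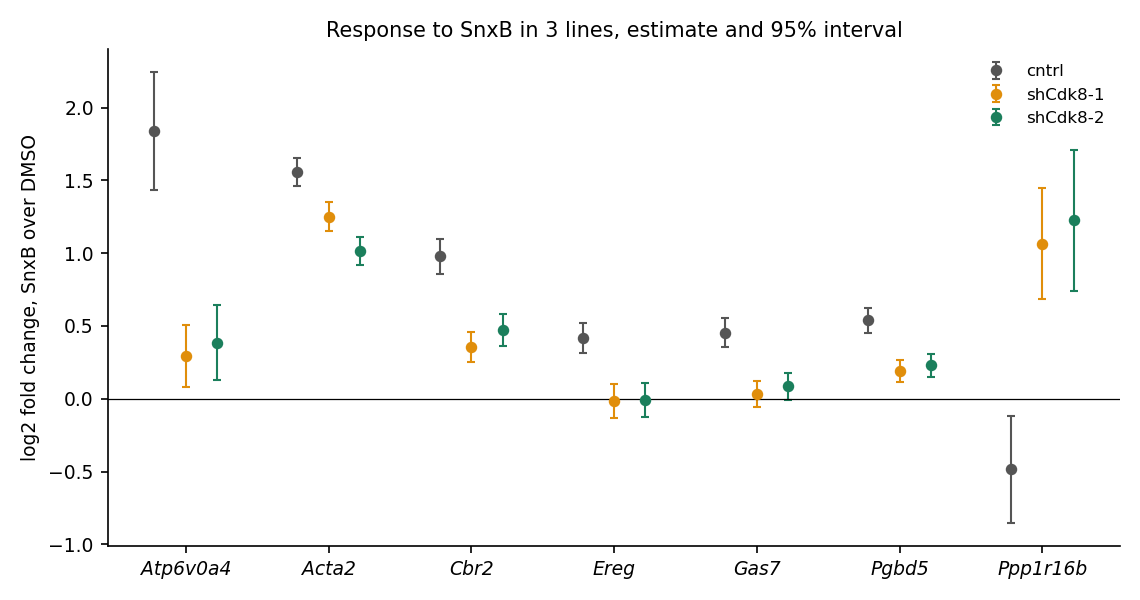
Log2 fold change of SnxB over DMSO with its 95% interval in cntrl (grey), shCdk8-1 (orange) and shCdk8-2 cells (green) for the 7 genes whose response differed between shCdk8-2 and cntrl cells past the adjusted p. The choice of genes fixes the gap between grey and green. For several of the genes the orange point lies closer to green than to grey. Among them are Ppp1r16b, at 1.06 against 1.22 and −0.49, and Acta2, Atp6v0a4, Ereg, Gas7 and Pgbd5.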

How the data were processed

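RNA was extracted and sequenced as single-end libraries by the authors. Per the labels and file headers, reads were trimmed with Trimmomatic, aligned with STAR to GRCm38 (mm10) and assigned to genes with featureCounts 1.5.1 with strand taken into account. The deposited values are raw counts per gene, 50686 genes per library, and no normalization was applied by the authors in these files. Reads that match several genes are not counted by default in featureCounts, which can lower counts of paralogs. Symbols were assigned to 50376 genes.

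Genes were kept with edgeR's filterByExpr (minimum count 10, minimum total 15), which left 12772, and were scaled by TMM. The quasi-likelihood test of edgeR 4.0.16 (R 4.3.3) was fitted to all 18 libraries in 6 groups, which share 1 estimate of the spread, with contrasts for SnxB against DMSO in each line and for the differences between lines. P-values were adjusted by Benjamini and Hochberg over all genes tested, and the thresholds were an adjusted p of 0.05 and a 2-fold change. CPM values of single genes are counts over library sizes that include the TMM scaling. Exceptions are the cell-type and receptor markers, their sums and the limit for weakly expressed genes. These are counts over library totals and are not TMM-scaled. SE and 95% intervals of log2 fold changes come from the fit. The scripts were tested on simulated data. No pairing by replicate number was seen: deviations of same-numbered DMSO and SnxB libraries of shCdk8-2 cells correlated at −0.01, 0.02 and 0.06. Since the numbers of these libraries are in doubt, this check cannot exclude a pairing.

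Alternatives were DESeq2 1.42.0, DESeq2 size factors, library totals, no filter, a filter of 1 CPM in 3 libraries, an adjusted p of 0.01, glmTreat, a replicate block, fits on the compared groups alone, each library left out in turn and, chosen after seeing the data, the libraries labelled 2 and 3 summed. Single genes and lists were not scored at an adjusted p of 0.01 or with glmTreat. A call said to hold under every alternative therefore leaves these settings out. Named were Cdk8 and Cdk19, the 12 largest rises and falls past the adjusted p with at least 1 CPM and no overlap, up to 4 called and 2 abundant members per list, the genes of the interaction and those the study followed. Other called genes were named after their values were seen, also where the text does not say so. This holds for Ldb3, Filip1l and Rsu1 and for further called list members such as Cnn2, Csrp1, Vcl, Col18a1, P4ha2 and Lgals9. The gene lists, their members and the comparison were chosen with earlier results of these data known. Promoter windows were read from RefSeq sequence of GRCm38.p6, and a CArG box was taken as CC, 6 letters A or T and GG. Some items are not reported here.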

Additional observations from a re-analysis of the deposited data

Results flagged for a closer look

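The response to SnxB differed between shCdk8-2 and cntrl cells, by edgeR's quasi-likelihood test of the interaction, for 7 genes. Values are shCdk8-2 minus cntrl log2 fold changes. Acta2 (difference −0.55, adjusted p = 0.000675) passed the test in all 20 alternatives. Cbr2 (−0.51, adjusted p = 0.0177) missed it in 7, with adjusted p of 0.0513 to 0.0878 without cntrl DMSO replicate 2 or 3, cntrl SnxB replicate 3, any 1 shCdk8-2 DMSO library or shCdk8-2 SnxB replicate 2. Atp6v0a4 (−1.46, adjusted p = 0.0232) missed it in 10, Ppp1r16b (1.71, adjusted p = 0.0304) in 11, Ereg (−0.43, adjusted p = 0.0304) in 12, Gas7 (−0.37, adjusted p = 0.0371) in 14 and Pgbd5 (−0.31, adjusted p = 0.0407) in 17. For these 5 genes the adjusted p without 1 library reached 0.0986, 0.129, 0.153, 0.167 and 0.253, in that order. In shCdk8-1 cells their log2 fold changes were 0.30 for Atp6v0a4, 1.06 for Ppp1r16b, −0.02 for Ereg, 0.03 for Gas7 and 0.19 for Pgbd5.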

How the results depend on the processing

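The 262 deregulated genes became 242 to 305 under other scalings, filters, DESeq2, the compared groups alone (302) and the replicate block (244), and 118 at an adjusted p of 0.01. Summing the libraries labelled 2 and 3 left 112, and leaving out 1 library 141 to 163. The 16 genes past a 2-fold change became 28 without a filter, 10 at an adjusted p of 0.01 and 9 to 19 without 1 library, and glmTreat, which tests against the 2-fold limit itself, called 0 (21 at an unadjusted p below 0.05). The 7 genes with a different response in cntrl cells became 44 without a filter, 19 with DESeq2, 11 with the replicate block, 4 on the compared groups alone, 2 with summed libraries, 1 at an adjusted p of 0.01 and 1 to 10 without 1 library. The 0 genes that differed from shCdk8-1 cells became 114 without a filter and stayed 0 (0 to 0) without 1 library, and of the 44 and 114 none was a gene the filter had removed. The replicate block changed no other of these counts by more than 1.5 times. By their labels, same-numbered libraries share only a number.

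Of 80 genes examined by name that passed the adjusted p, 40 passed it under every alternative that scored single genes and 0 changed direction. An adjusted p of 0.01 and glmTreat did not score single genes. Many calls said above to be lost without 1 library were also lost with the libraries labelled 2 and 3 summed, among them those of Cdk19, Txnip, Filip1l, Cd276 and Lgals9. Direction changed, without a call, for H2-D1 (0.0018 with DESeq2 size factors, 0.0019 with library totals, 0.0012 with the CPM filter, 0.0014 with DESeq2) and Icam1 (−0.019 with summed libraries), and without 1 library for H2-D1 (−0.013 to 0.020), Icam1 (−0.032 to 0.090), Mmp9 (−0.18 to 0.21), Cd274 (−0.054 to 0.19), Ereg (−0.031 to 0.026), Cdk8 (−0.0098 to 0.075) and Snai2 (−0.28 to 0.68). The causes were not tested. Intervals reflect 3 libraries per group. Large changes of genes near 3 counts could pass the test, as for Lmod1, whereas smaller ones may go undetected at this depth.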

Other observations

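Within the shCdk8-2 libraries, Gm15564, Lars2, Gm23935, Mir6236 and Gm42418 had their highest level in DMSO replicate 3. Lars2, a mitochondrial leucyl-tRNA synthetase, lay at 405.8 CPM there and at 58.8 to 85.1 CPM in the other 5 libraries, and Mir6236 at 467 CPM against 34.7 to 67.4 CPM. Their log2 fold changes were −1.91 to −1.28, with adjusted p of 0.16 to 0.255 by edgeR. Only genes that missed the adjusted p were picked here, so that the lack of a call follows from the choice. The share of counts on mitochondrial genes was 1.22 to 1.35% in the DMSO libraries, 1.30 and 1.32% in SnxB replicates 2 and 3 and 0.840% in SnxB replicate 1.

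Intermediate filament gene Synm (synemin), named after its values were seen, read 13.8, 13.6 and 13.3 CPM with DMSO and 18.3, 18.4 and 18.1 CPM with SnxB, a log2 fold change of 0.43 (edgeR, adjusted p = 0.00951). Its groups did not overlap, and the call was lost with the libraries labelled 2 and 3 summed (adjusted p = 0.0676).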
